A study of Mus musculus with 26 samples.

Results

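The genes described are 10 that megakaryocytes, the platelet-forming cells of bone marrow, and platelets are known for: Itga2b, Itgb3, Gp1ba, Gp1bb, Gp9, Gp6, Treml1, Pf4, Ppbp and Vwf. They were chosen by symbol from a table of 24091 genes, and all 10 had a row. RNA had been sequenced from LSK cells, a sorted marrow population without lineage markers and with Sca-1 and c-Kit, in which stem cells and early progenitors are found, of mice with chronic myeloid leukaemia (CML). The study asked how loss of Spred1, which codes for an inhibitor of RAS-ERK signalling, alters these cells when it is lost in different compartments. There were 26 libraries in 5 groups, and library numbers below only name the libraries of a group.

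The Spred1 wt group (5 libraries) and the global KO group (6 libraries) were labelled as CML mice with intact Spred1 and with Spred1 lost throughout the animal. In the HSC KO group (5 libraries), the floxed gene was removed by Mx1-cre, which poly(I:C) induces through interferon. The HSC wt group (5 libraries) had the same transgenes and wild-type Spred1. Both HSC groups received 7 intraperitoneal doses of 250 µg poly(I:C), 1 every 2 days, so an interferon stimulus is common to them. In the EC KO group (5 libraries) Spred1 was removed in endothelial cells, and the sorted LSK cells are not themselves the labelled target. The Cre driver of the endothelial line is not given in the sources used here. SCLtTA/BCR-ABL, in which a tetracycline-controlled transactivator under Scl regulatory sequence drives BCR-ABL, is named for the HSC and EC animals, and the background is C57BL/6. The control of EC KO in the study, EC wt, is not analysed here, and Spred1 wt stands in for it. Ages are not given, nor whether poly(I:C) was used in any mice but those of the HSC groups. The labels speak of mice without tying each library to 1 animal, so the p-values measure the spread between libraries.

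Platelets are shed from megakaryocytes, which arise from stem and progenitor cells under thrombopoietin, and some stem cells already transcribe part of the platelet programme. On the platelet surface the GPIb-IX-V complex, which binds von Willebrand factor at a damaged vessel wall, and the integrin αIIbβ3, which binds fibrinogen and links platelets to each other, carry out adhesion and aggregation. Platelet alpha granules store chemokines and von Willebrand factor and release them on activation. Itga2b also codes for CD41, a marker of early blood progenitors and of mast cells as well as of megakaryocytes.

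The promoters of Itga2b, Gp1ba, Gp9, Pf4 and Ppbp are shown as examples of surface subunits and granule chemokines. In the results below Itga2b and Gp1ba varied together across libraries and Pf4 ran against both. The surface gene Gp9 went with Pf4 and not with Itga2b or Gp1ba. A link of promoter sequence to these patterns was not tested. Each line gives the 250 bases before the transcription start of RefSeq on GRCm38.p6, read 5′ to 3′ on the strand of the gene. Capitals mark the GATA factor core GATAA, the ETS factor core GGAAG and the TATA box TATAAA. On the opposite strand the GATA core reads TTATC, the ETS core reads CTTCC and the TATA box reads TTTATA. The motifs GATAA and TATAAA share the letters ATAA. The windows are chr11:102469884-102470133 on the minus strand for Itga2b, and on the plus strand chr11:70638872-70639121 for Gp1ba, chr6:87777820-87778069 for Gp9, chr5:90772185-90772434 for Pf4 and chr5:90768268-90768517 for Ppbp.
Itga2b: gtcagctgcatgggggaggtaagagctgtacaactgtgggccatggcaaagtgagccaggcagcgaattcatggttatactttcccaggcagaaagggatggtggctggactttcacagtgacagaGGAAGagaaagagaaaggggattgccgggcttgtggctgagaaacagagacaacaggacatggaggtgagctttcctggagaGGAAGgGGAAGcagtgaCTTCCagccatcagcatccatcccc
Gp1ba: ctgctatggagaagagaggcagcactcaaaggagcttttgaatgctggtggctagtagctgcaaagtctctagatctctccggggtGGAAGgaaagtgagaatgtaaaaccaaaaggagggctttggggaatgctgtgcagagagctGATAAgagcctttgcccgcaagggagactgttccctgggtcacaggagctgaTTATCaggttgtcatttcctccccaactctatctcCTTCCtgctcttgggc
Gp9: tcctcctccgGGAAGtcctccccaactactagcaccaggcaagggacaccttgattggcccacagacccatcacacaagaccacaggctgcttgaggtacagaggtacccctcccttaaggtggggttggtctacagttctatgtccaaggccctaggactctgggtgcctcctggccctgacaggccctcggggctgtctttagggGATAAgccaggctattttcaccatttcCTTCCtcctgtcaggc
Pf4: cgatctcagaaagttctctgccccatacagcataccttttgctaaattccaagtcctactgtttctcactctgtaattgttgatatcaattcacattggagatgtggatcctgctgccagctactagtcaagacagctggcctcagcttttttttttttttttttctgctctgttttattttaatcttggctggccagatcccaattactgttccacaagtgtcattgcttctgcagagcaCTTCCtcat
Ppbp: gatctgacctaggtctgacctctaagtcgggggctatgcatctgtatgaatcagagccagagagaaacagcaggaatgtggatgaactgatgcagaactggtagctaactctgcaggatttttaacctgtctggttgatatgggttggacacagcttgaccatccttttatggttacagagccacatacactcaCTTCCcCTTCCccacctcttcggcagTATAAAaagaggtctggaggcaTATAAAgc

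Of the 10 genes, 8 had a promoter in the RefSeq table, and Itgb3 and Vwf are named only. GATAA lay in 3 of the 8 windows, those of Gp1ba, Gp9 and Gp6, and in 22.6% of 32841 promoter windows of the same length. GGAAG lay in 7 of 8, against 64.1% of all windows. TATAAA lay in 1 of 8, that of Ppbp, where it occurred at 2 positions, and in 12.4% of all windows. These are matches of letters and not measured binding. Pf4 and Ppbp are neighbours on chromosome 5, with 2372 bases and 0 annotated genes between them in the deposited coordinates (mm10).

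Total counts lay between 14816071 and 26714325 per library. Levels are CPM, counts scaled to library size with TMM factors, and a value per kb is CPM divided by the gene length of the deposited table. Spred1 itself stood at 32.7 ± 7.36 CPM in global KO (SD, n = 6) and 114 ± 20.7 in Spred1 wt (n = 5), and at 35.4 ± 7.29 in HSC KO and 104 ± 4.90 in HSC wt (n = 5 each), the lower values being those of the groups labelled as knockouts. In EC KO, where the labelled target is not the sorted cell, it stood at 70.4 ± 11.4 CPM (n = 5) and was also lower than in Spred1 wt (log2 difference -0.70, edgeR adjusted p = 0.00527), with all 5 libraries under the lowest Spred1 wt library. LSK marker genes were present in every group, with Cd34 at a mean of 799 and Ly6a at 57.9 CPM over all libraries. Xist, a transcript that female cells use to silence an X chromosome, exceeded 500 CPM in 2 EC KO, 2 HSC wt and 3 HSC KO libraries and in 0 Spred1 wt and global KO libraries. After the filter on low counts 13379 genes were tested, and a call is a Benjamini-Hochberg adjusted p under 0.05 over all of them in edgeR's quasi-likelihood test.

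All of the genes but Gp6 passed the filter, and per length they spanned a wide range of levels. The integrin subunits led, with means over the 26 libraries of 32.9 CPM per kb for Itga2b and 12.9 for Itgb3. Pf4 (9.86 CPM per kb), Gp9 (5.19) and Gp1ba (5.12) followed. Vwf had 1.82 CPM per kb, Ppbp 1.04, Treml1 1.04 and Gp1bb 0.439. Neighbours in this order overlapped in their ranges over libraries, although every single library had more Itga2b than Itgb3 per kb. Gp6, which codes for the platelet collagen receptor, had 25 counts in all 26 libraries together, was at 0 in 16 of them and reached 7 counts in HSC KO 1. A count of 0 allows up to 3 counts, which is 0.113 to 0.197 CPM depending on the library and covers counting error only. Counts per library ran from 1908 to 6204 for Itga2b but from 3 to 130 for Ppbp, 4 to 40 for Gp1bb and 10 to 87 for Treml1, so that the last 3 are measured with far less precision. Gp1bb overlaps Sept5 over 593 bases on the same strand, which makes its count uncertain. In the deposited coordinates an entry for Mir5098 also spans Gp1ba, Itga2b and Itgb3.

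The spread between libraries of a group also differed between the genes. The biological coefficient of variation, the spread that edgeR estimates beyond counting noise, was 0.207 for Itgb3, 0.236 for Gp9 and 0.300 for Itga2b. It was 0.432 for Gp1ba, 0.454 for Vwf, 0.528 for Pf4 and 0.780 for Ppbp, against a median of 0.134 over the genes tested. The library with most Ppbp had 35.2 times the level of the library with least, and for Gp9 this ratio was 2.92. 

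**Figure D1:**
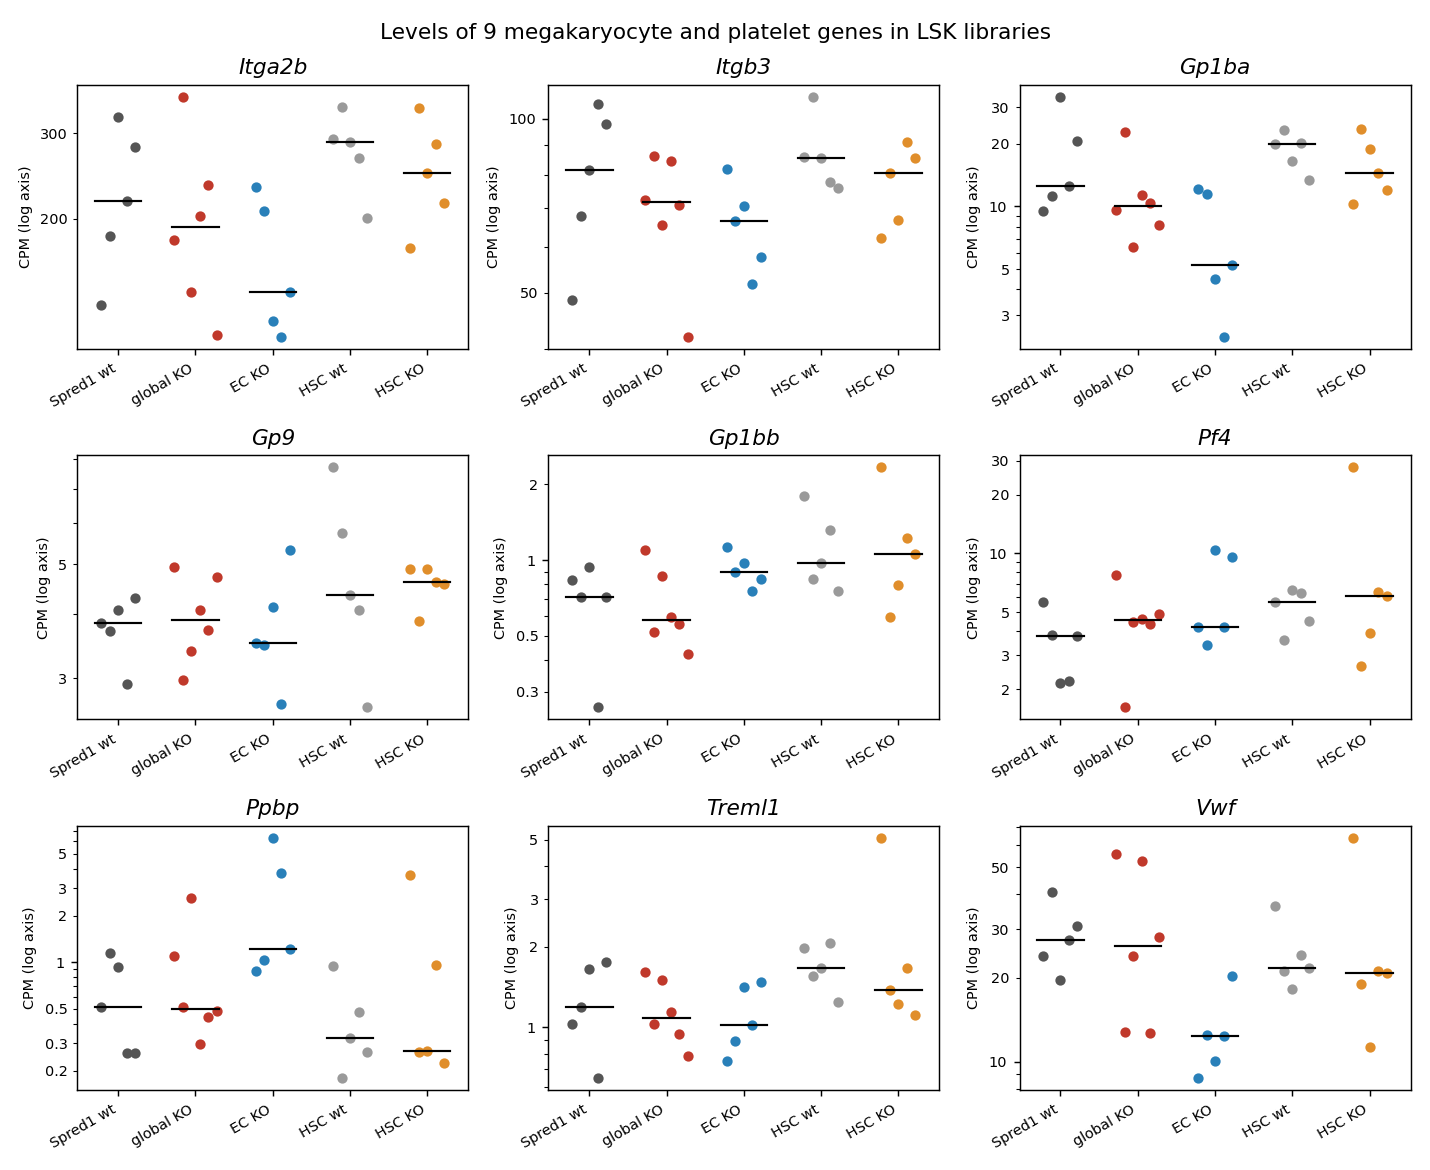
Level of 9 genes in each of the 26 libraries by group, in CPM on log axes; each point is 1 library and each bar the group median. EC KO libraries reach the lowest Gp1ba values (2.36 to 12.1 CPM), and HSC KO 1 holds the highest Pf4 value (27.7 CPM).

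The integrin genes were the most abundant and among the steadiest. Itga2b, the αIIb subunit, stood at 133, 184, 324, 217 and 281 CPM in Spred1 wt 1 to 5, compared with 232, 208, 123, 114 and 142 CPM in EC KO 1 to 5. In global KO its lowest, median and highest values were 115, 192 and 356 CPM. In HSC wt 1 to 5 the values were 292, 340, 288, 267 and 200.3 CPM, and in HSC KO 1 to 5 they were 174, 338, 248.9, 285 and 216 CPM. The groups overlapped, and EC KO had the lowest group mean and HSC wt the highest, 164 ± 53.0 and 277 ± 50.8 CPM (SD, n = 5 each). Itgb3, the β3 subunit that pairs with αIIb or with αv, had group means between 65.7 ± 11.7 CPM in EC KO and 86.8 ± 13.3 in HSC wt (n = 5 each), and single libraries from 41.9 to 109 CPM. The ratio of Itga2b to Itgb3 per kb had a median of 2.43 and ran from 1.502 in EC KO 3 to 3.63 in HSC KO 2.

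The genes of the von Willebrand factor receptor were unequal in level and in pattern. Gp1ba, the subunit that carries the binding site for von Willebrand factor, stood at 9.55, 11.2, 33.6, 12.6 and 20.6 CPM in Spred1 wt, compared with 12.1, 11.5, 4.48, 2.36 and 5.25 CPM in EC KO. HSC wt had 19.98, 23.3, 16.6, 20.1 and 13.4 CPM, HSC KO had 10.3, 23.6, 18.9, 14.5 and 11.9 CPM, and the lowest, median and highest of global KO were 6.35, 10.002 and 22.7 CPM. EC KO 3, 4 and 5 were lower than all other libraries, while EC KO 1 and 2 lay below all HSC wt libraries and within the range of the remaining groups. Gp9, a small subunit needed for the complex to reach the surface, varied little, with group means from 3.77 ± 0.524 CPM in Spred1 wt to 4.90 ± 1.92 in HSC wt (n = 5 each). Gp1bb, the subunit linked to GPIbα by disulfide bonds, stayed between 0.260 and 2.33 CPM. The ratio of Gp1ba to Gp9 per kb, with a median of 0.912, ran from 0.260 in EC KO 4 to 2.43 in Spred1 wt 3, a wide range for subunits of 1 complex. Treml1, which codes for a receptor stored in alpha granules that comes to the surface on activation, stood between 0.649 and 2.06 CPM in all libraries but HSC KO 1, where it reached 5.07.

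The chemokine genes Pf4 and Ppbp had the widest ranges of the 9 tested genes, 17.1-fold and 35.2-fold between libraries. Pf4, platelet factor 4, stood at 5.64, 3.80, 2.15, 2.21 and 3.77 CPM in Spred1 wt, compared with 4.18, 3.39, 10.4, 4.18 and 9.54 CPM in EC KO. HSC wt had 5.62, 3.60, 6.45, 6.24 and 4.48 CPM and HSC KO 27.7, 2.63, 3.89, 6.35 and 6.08 CPM, with 1.62, 4.54 and 7.79 CPM as lowest, median and highest in global KO. HSC KO 1 stood far above the rest, EC KO 3 and 5 came next, and the groups otherwise overlapped. Ppbp, whose product is cut to the chemokine NAP-2, stood at 0.513, 1.14, 0.937, 0.260 and 0.260 CPM in Spred1 wt, compared with 0.879, 1.04, 6.32, 3.75 and 1.22 CPM in EC KO. Its values were 0.945, 0.180, 0.325, 0.476 and 0.264 CPM in HSC wt and 3.67, 0.263, 0.266, 0.962 and 0.223 CPM in HSC KO, and 0.298, 0.5002 and 2.58 CPM as lowest, median and highest in global KO. The highest Ppbp values thus lay in EC KO 3, EC KO 4 and HSC KO 1.

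Vwf, which platelets, megakaryocytes and endothelial cells make and which also marks a platelet-biased subset of stem cells, stood at 23.9, 40.9, 19.7, 27.3 and 30.8 CPM in Spred1 wt. In EC KO it stood at 8.74, 12.4, 10.02, 12.4 and 20.3 CPM, and 4 of these 5 libraries lay below all Spred1 wt libraries. Its values were 36.4, 21.2, 18.3, 24.1 and 21.7 CPM in HSC wt and 63.8, 19.1, 11.3, 21.1 and 20.9 CPM in HSC KO. Global KO spanned 12.7 to 56.0 CPM with a median of 26.04, and held both low and high libraries. In bulk RNA, fewer cells of a type and less RNA per cell cannot be told apart for any of these values.

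In global KO against Spred1 wt, 0 of the 9 tested genes passed the threshold in edgeR, where 0.0747% of all genes tested did (0.0224% higher and 0.0523% lower), and 0 had an unadjusted p under 0.05. The surface and granule genes lay on both sides of zero, 4 higher and 5 lower, with a median log2 difference of -0.04 against 0.01 over all genes. The largest difference was that of Gp1ba at -0.62 (95% interval -1.41 to 0.17, edgeR adjusted p = 0.917). Ppbp differed by 0.51 (-1.04 to 2.05) and Pf4 by 0.40 (-0.60 to 1.40), both with intervals that include changes of more than 2-fold. The intervals of Gp9 (0.07, -0.36 to 0.51) and Itgb3 (-0.19, -0.57 to 0.18) were narrower. Global KO 2, which had the highest mast cell marker sum of its group, also had its highest Gp1ba and Itga2b and its lowest Pf4.

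In HSC KO against HSC wt, 0 of 9 passed in edgeR, with 0.0224% of all genes passing, and 0 had an unadjusted p under 0.05. The granule chemokines had the largest fitted differences, Ppbp at 1.28 (95% interval -0.35 to 2.91) and Pf4 at 0.82 (-0.19 to 1.84), both with an edgeR adjusted p of 0.999. These values came from a single library: without HSC KO 1 they were -0.06 for Ppbp and -0.16 for Pf4 (edgeR adjusted p = 0.993 and 0.961). Vwf went from 0.16 to -0.43 and Treml1 from 0.30 to -0.34 without the same library. Itgb3 (-0.17, -0.56 to 0.22) and Itga2b (-0.14, -0.70 to 0.43) were small differences with either set. In HSC KO 1 the summed level of 11 erythroid markers was 403 CPM, against 13.7 to 23.4 CPM in the other 4 HSC KO libraries and 16.1 to 19.4 CPM in HSC wt. Its mast cell marker sum, 1959 CPM, was the lowest of both HSC groups, and its Xist exceeded 500 CPM. The part of these in its platelet gene levels was not tested.

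EC KO against Spred1 wt had the largest differences of these genes. Of the 9, 0 passed the threshold in edgeR, against 7.96% of all genes tested (3.49% higher and 4.47% lower), and 3 had an unadjusted p under 0.05, as did 3360 of the 13379 genes. Gp1ba differed by -1.29 (95% interval -2.13 to -0.45, edgeR adjusted p = 0.0514), with 3 of 5 libraries below all Spred1 wt libraries. Vwf differed by -1.16 (-2.05 to -0.27, edgeR adjusted p = 0.0939), with 4 of 5 libraries below. Ppbp, by contrast, stood higher, by 2.04 (0.48 to 3.60, edgeR adjusted p = 0.092), with 3 of 5 libraries above all Spred1 wt libraries. The median log2 difference of the 9 genes was -0.18, against 0.02 over all genes.

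The other genes had intervals that included 0. Itga2b differed by -0.48 (-1.05 to 0.09) and Itgb3 by -0.29 (-0.68 to 0.10). Pf4 differed by 0.85 (-0.18 to 1.89), Gp1bb by 0.40 (-0.33 to 1.14), Treml1 by -0.18 (-0.93 to 0.57) and Gp9 by 0.02 (-0.43 to 0.48). Within the von Willebrand factor receptor, then, the low EC KO value was that of Gp1ba, while Gp9 and Gp1bb had fitted values at or above zero. These 2 signs depended on the control: with HSC wt in its place Gp9 stood at -0.35 and Gp1bb, whose counts were low, at -0.30.

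Whether Gp1ba, Vwf or Ppbp counted as called depended on the settings. Gp1ba passed in 11 of 22 alternative fits, with adjusted p between 0.0123 and 0.41. Vwf passed in 3, with 0.00393 to 0.224, and Ppbp passed in 3, with 0.0133 to 0.916. With HSC wt as the control of EC KO, Gp1ba stood at -1.38 (edgeR adjusted p = 0.03) and Ppbp at 2.56 (0.0336). Leaving out Spred1 wt 3, the control library with most Gp1ba, gave -0.91 (edgeR adjusted p = 0.153).

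The EC KO and Spred1 wt libraries also differed in Xist and in mast cell transcripts. EC KO 1 and 2 had Xist over 500 CPM and all Spred1 wt libraries had not, and among libraries without Xist the differences were -2.12 for Gp1ba and 2.53 for Ppbp (edgeR adjusted p = 0.0123 and 0.0313), a choice made after the values were seen. This subset keeps EC KO 3, 4 and 5, the libraries with the lowest Gp1ba and the highest Ppbp of that group. In HSC KO the libraries with Xist over 500 CPM (1, 4 and 5) had instead the lower Gp1ba. They stood at 10.3, 14.5 and 11.9 CPM, against 23.6 and 18.9 CPM in HSC KO 2 and 3. With the planned sex covariate over all libraries, none of the tested platelet genes passed. Of 12 mast cell and basophil markers, 2 fell in EC KO, Mcpt4 with a log2 difference of -3.74 and Gzmb of -2.62 (edgeR adjusted p = 0.013 and 0.0242). The list did not move one way: 9 markers were lower and 3 higher, with a median of -1.43, and the basophil proteases Mcpt8 (1.10) and Prss34 (1.16) were among the higher ones (edgeR adjusted p = 0.169 and 0.242). The summed level of the list was 2201 to 5400 CPM in EC KO and 2971 to 17073 CPM in Spred1 wt, with no marker at 0 in either group. With the mean level of the list as a covariate, also added after the values were seen, Gp1ba differed by -0.28, Ppbp by 0.12 and Vwf by -1.98 (edgeR adjusted p = 0.41, 0.916 and 0.00393), and Itga2b and Pf4 changed sign, to 0.28 and -0.44. Most markers of the list stood lower in EC KO, so this covariate can take up part of the group difference. The list also holds Gata2, which is in the list of megakaryocyte transcription factors too. Kit, a marker of LSK cells that mast cells also carry, stood at 516 ± 126 CPM in EC KO and at 930 ± 182 in Spred1 wt (n = 5 each) and fell by 0.85 (edgeR adjusted p = 0.00447). Of 12 endothelial markers, 10 were tested and 0 passed, and their summed level was 221 to 357 CPM in EC KO and 247 to 349 CPM in Spred1 wt.

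**Figure D2:**
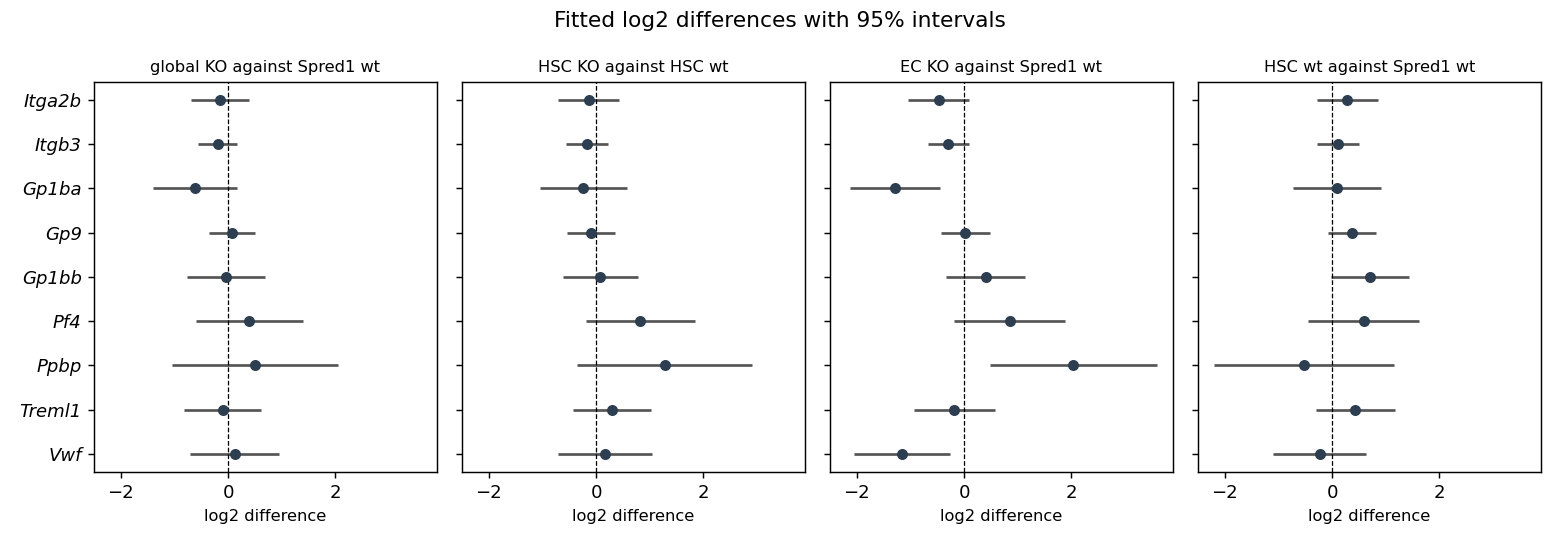
Fitted log2 differences of 9 genes (points) with 95% intervals (lines) in 4 comparisons; the dashed line marks no difference. In EC KO against Spred1 wt the intervals of Gp1ba (-2.13 to -0.45), Vwf (-2.05 to -0.27) and Ppbp (0.48 to 3.60) lie off zero, and in the other comparisons all intervals include it.

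The wild-type groups, which differ in poly(I:C) as labelled and in Mx1-cre, were compared to see how far the controls differ among themselves. In HSC wt against Spred1 wt, 0 of 9 genes passed in edgeR, with 0.0299% of all genes passing, and 0 had an unadjusted p under 0.05. The genes stood higher in HSC wt in 7 of 9, with a median of 0.28 against -0.01 over all genes. Gp1bb had the smallest p, at a log2 difference of 0.70 (95% interval -0.03 to 1.43, edgeR adjusted p = 0.783), followed by Gp9 at 0.38 (-0.07 to 0.83, edgeR adjusted p = 0.819). Ppbp (-0.53, -2.20 to 1.15) and Vwf (-0.23, -1.10 to 0.64) stood lower. The global KO, EC KO and HSC wt comparisons use the same 5 Spred1 wt libraries, so their values for a gene are not independent of each other. When the effect of global loss was set against that of loss through Mx1-cre, 0 of 9 genes passed in edgeR, with 0.0149% of all genes passing, 0 had an unadjusted p under 0.05, and the smallest adjusted p was 0.9998.

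Across libraries the 9 tested genes did not all go the same way. With group means subtracted, 17 of 36 gene pairs had a Pearson correlation with an adjusted p under 0.05 (100000 permutations, adjusted over the 36 pairs), 15 positive and 2 negative, and 11 also by Spearman's rho. The share among pairs of other tested genes was not computed, so the count cannot be read as particular to these genes. Itga2b, Gp1ba and Itgb3 went together. Itga2b and Gp1ba had r = 0.89 and rho = 0.93 over 26 libraries (permutation, adjusted p = 0.00036 for each), and r was 0.88 without the 2 libraries farthest from the median. Itga2b and Itgb3 had r = 0.74 and rho = 0.69 (permutation, adjusted p = 0.00348 and 0.0084), and 0.69 without the 2 farthest. Gp1ba and Itgb3 had r = 0.53 and rho = 0.57 (permutation, adjusted p = 0.0383 and 0.0403), and 0.43 without the 2 farthest.

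Other pairs linked the chemokines, Treml1, Gp1bb, Gp9 and Vwf, though not each with every other: Gp9 passed with Pf4 (0.40), Gp1bb (0.45), Treml1 (0.37) and Vwf (0.39), while Vwf did not pass with Ppbp (0.37) or Gp1bb (0.46). Gp1bb and Treml1 had r = 0.76 and rho = 0.68 (permutation, adjusted p = 0.00348 and 0.00756), and r was 0.51 without the 2 farthest libraries. Ppbp and Treml1 had r = 0.71 and rho = 0.62 (permutation, adjusted p = 0.00738 and 0.0235), and 0.51 without the 2 farthest. The neighbours Pf4 and Ppbp had r = 0.56 and rho = 0.46 (permutation, adjusted p = 0.0442 and 0.0855), and 0.34 without the 2 farthest. Pf4 ran against the integrin α subunit, at r = -0.62 and rho = -0.60 with Itga2b (permutation, adjusted p = 0.00738 and 0.026), and -0.48 without the 2 farthest. Whether a pair passed depended in many cases on HSC KO 1. Without that library 3 of 36 pairs passed, Itga2b with Gp1ba at 0.88, Itga2b with Itgb3 at 0.73 and Gp1bb with Treml1 at 0.66. Some pairs that no longer passed kept their r: Pf4 had -0.61 with Itga2b and -0.56 with Gp1ba (-0.55 with all libraries). Gp9 had 0.47 with Pf4, 0.48 with Gp1bb, 0.45 with Treml1 and 0.41 with Vwf, none lower than with all libraries. In other pairs r fell, such as Pf4 and Ppbp to 0.34, Pf4 and Treml1 from 0.68 to 0.41, and Treml1 and Vwf from 0.57 to 0.33. Without global KO 1 or global KO 2, 9 pairs passed in each case.

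**Figure D3:**
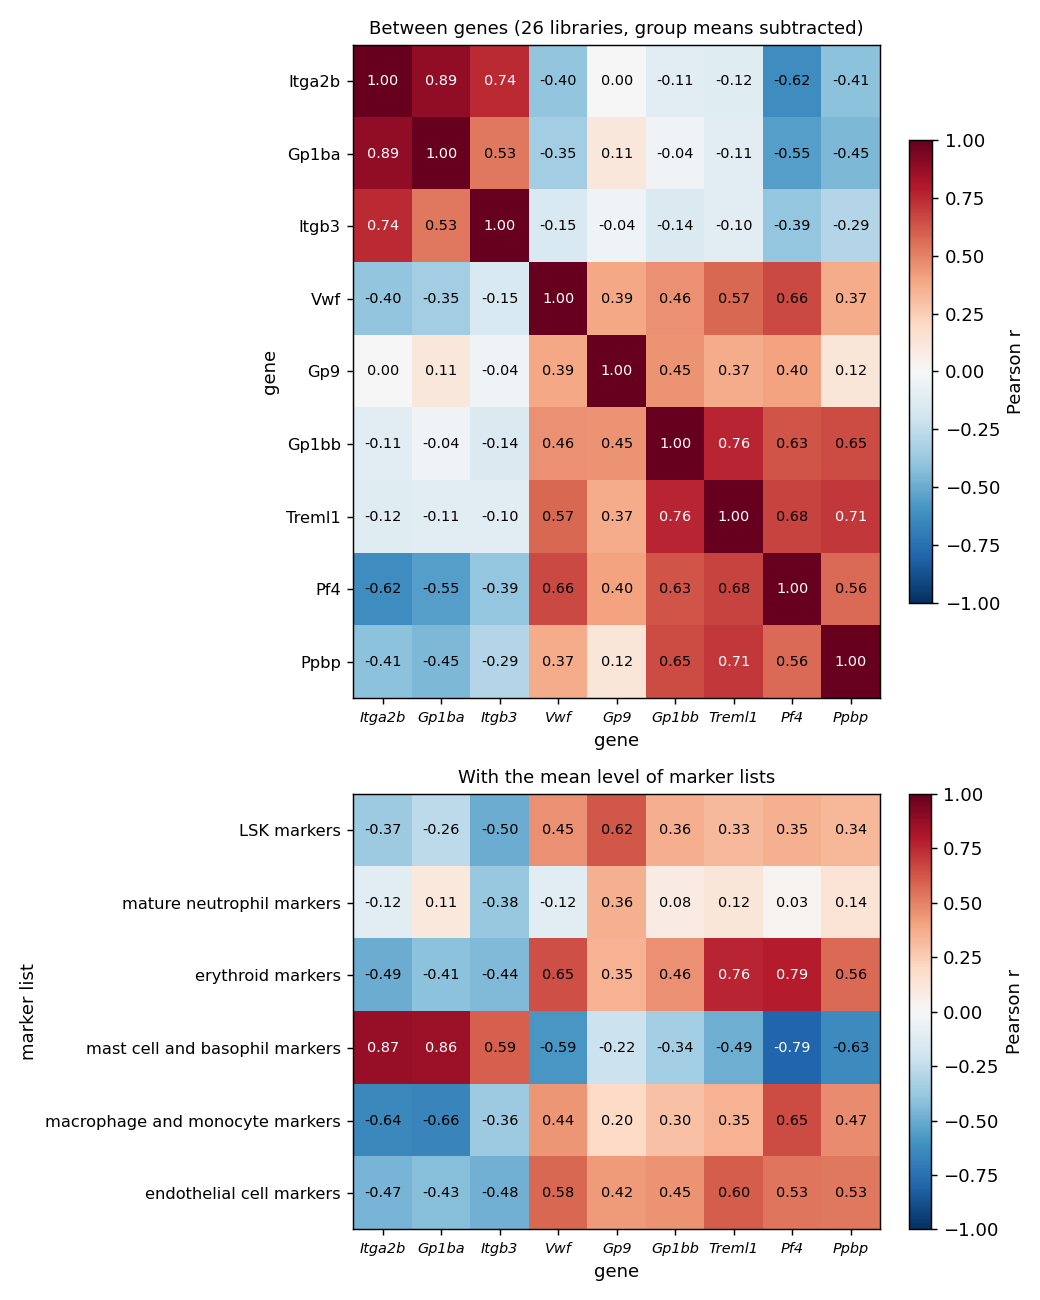
Pearson correlations over 26 libraries of log2 CPM with group means subtracted, between 9 genes (upper panel) and of each gene with the mean of 6 marker lists (lower panel). Itga2b, Gp1ba and Itgb3 correlate with each other (0.53 to 0.89) and with the mast cell and basophil list (0.59 to 0.87). With that list Pf4, Ppbp and Vwf have the opposite sign (-0.79, -0.63 and -0.59).

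The genes also differed in their relation to marker lists of other cells. Of 54 relations between 9 genes and 6 lists, computed after the values were seen, 23 had a Pearson adjusted p under 0.05 (permutation, adjusted over the 54). How often other tested genes relate to these lists was not computed, so this count too cannot be read as particular to these genes. The mast cell and basophil list had r = 0.87 with Itga2b and 0.86 with Gp1ba, with rho of 0.87 and 0.89 (permutation, adjusted p = 0.00027 for each). Both held without the 2 libraries farthest from the median of the list, at 0.85 and 0.89. The list had r = 0.59 and rho = 0.57 with Itgb3 (permutation, adjusted p = 0.0153 and 0.0336), and 0.53 without the 2 farthest. With Pf4 the sign was opposite, r = -0.79 and rho = -0.68 (permutation, adjusted p = 0.0036 and 0.0115), and -0.60 without the 2 farthest. Ppbp had r = -0.63 and rho = -0.56 (permutation, adjusted p = 0.0211 and 0.037), and -0.51 without the 2 farthest. Vwf had r = -0.59 and rho = -0.48 (permutation, adjusted p = 0.0271 and 0.0618), and -0.27 without them. Gp9, Gp1bb and Treml1 also had negative r with the list and did not pass. The 5 libraries with a mast cell marker sum of 10100 CPM or more were Spred1 wt 3, 4 and 5, global KO 2 and HSC KO 2, and the Pf4 level of these was 1.62 to 3.77 CPM. Mast cells are known to carry CD41, and the part of mast cell transcripts in the Itga2b level was not tested.

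Pf4, Treml1 and Vwf went with the erythroid list. Its r was 0.79 with Pf4, 0.76 with Treml1 and 0.65 with Vwf, and rho was 0.73, 0.62 and 0.52 (permutation, adjusted p of r = 0.00972, 0.0124 and 0.0124). Without the 2 libraries farthest in the list, EC KO 5 and HSC KO 1, r was 0.58, 0.48 and 0.35. Itga2b and Itgb3 ran against the erythroid list, at r = -0.49 and -0.44 (permutation, adjusted p = 0.0271 for each). Their rho was -0.55 and -0.43, and r was -0.54 and -0.45 without the 2 farthest. Macrophage and monocyte markers had r = 0.65 with Pf4, -0.66 with Gp1ba and -0.64 with Itga2b (permutation, adjusted p = 0.0124, 0.0173 and 0.017). Without the 2 farthest libraries r was 0.61, -0.70 and -0.73. Gp9 had its highest r with the list of LSK markers, 0.62 (rho 0.60; permutation, adjusted p = 0.0173 and 0.0336), and 0.44 without the 2 farthest. It also passed with the erythroid list (r = 0.35, rho = 0.50; permutation, adjusted p = 0.0498 and 0.037), at 0.25 without the 2 farthest. The LSK list also passed with Vwf at r = 0.45 and with Itgb3 at r = -0.50 (permutation, adjusted p = 0.0336 and 0.0486). Their rho was 0.34 and -0.43, and r was 0.35 and -0.54 without the 2 farthest. The endothelial list passed with 5 genes: r was 0.60 for Treml1, 0.58 for Vwf, 0.53 for Pf4, 0.53 for Ppbp and 0.45 for Gp1bb (permutation, adjusted p = 0.0124, 0.0124, 0.0314, 0.0384 and 0.0411). Their rho was 0.57, 0.44, 0.49, 0.56 and 0.36, and without the 2 farthest libraries, EC KO 5 and Spred1 wt 4, r was 0.51, 0.60, 0.47, 0.67 and 0.39. The part of endothelial transcripts in the Vwf level was not tested. The mature neutrophil list had 0 relations past the threshold, with r between -0.38 and 0.36.

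**Figure D4:**
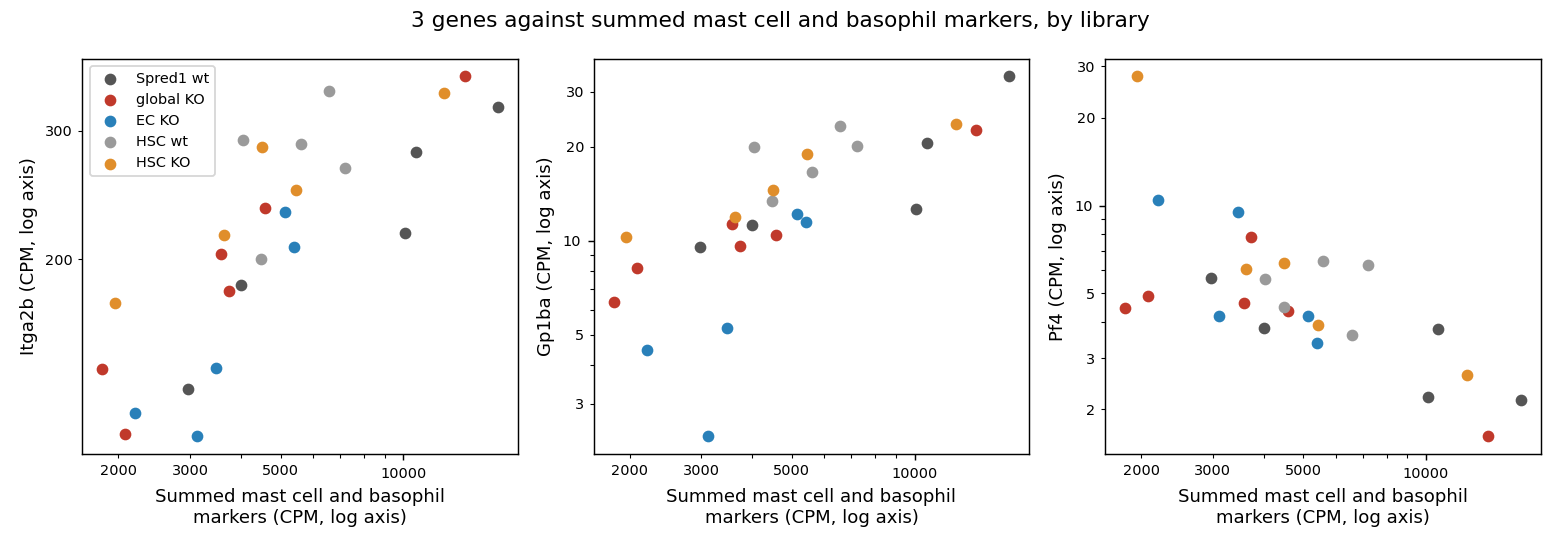
Itga2b, Gp1ba and Pf4 (CPM, log axes) against the summed level of 12 mast cell and basophil markers (CPM, log axis), 1 point per library, coloured by group. The 5 libraries with a marker sum of 10100 CPM or more hold Pf4 values of 1.62 to 3.77 CPM, and global KO 2 among them has the highest Itga2b level of all (356 CPM).

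The non-member genes with the pattern most like the mean of the 9 standardised genes over the 26 libraries, by Pearson's r, were Kif6 (0.74), Gp5 (0.73), Zfp385a (0.71), Vps13b (0.71), Rbpms2 (0.70), Cog1 (0.70), Fam3a (0.70), Hipk2 (0.70), Ctse (0.69) and Bpgm (0.68). Gp5 codes for the remaining subunit of the GPIb-IX-V complex. The mean joins genes of unlike pattern, as the median r of the 36 pairs was 0.12. Kif6 stood at a mean of only 0.401 CPM. Nearest to single genes, a choice made after the values were seen, were Slc7a8 to Itga2b (0.95), Adgre5 to Gp1ba (0.91), Cited2 to Itgb3 (0.84) and Prkch to Gp9 (0.78). Ehd3 was nearest to Vwf (0.91), Phf11d to Pf4 (0.85) and Alas2, the first enzyme of haem synthesis in red cells, to Treml1 (0.79). Treml1 and the summed erythroid markers were both highest in HSC KO 1. Without that library r of Treml1 with the erythroid list was 0.52, against 0.76 with it. Nearest to Ppbp was Tubb1 (0.83), the β1 tubulin of platelets, followed by Zfp748 (0.82), Harbi1 (0.80), Alox12 (0.79), platelet 12-lipoxygenase, and Dtx3l (0.77). These are likenesses over the same libraries, picked as the largest of all tested genes, with no test.

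The rest of the platelet programme was followed in 6 lists of 98 genes, of which 95 were tested. In global KO, in HSC KO, in HSC wt against Spred1 wt and in the difference of effects, 0 of 95 passed in edgeR. In EC KO against Spred1 wt, 9 of 95 passed (9.47%, beside 7.96% of all genes tested), of which 1 rose and 8 fell, with a median of -0.09. Of receptors and their signalling 3 of 26 fell and 0 rose. Syk, the kinase downstream of GPVI, stood at 286 ± 10.6 CPM in EC KO and 337 ± 34.4 in Spred1 wt (n = 5 each) and fell by 0.24 (edgeR adjusted p = 0.0229). Tln1, the talin that activates integrins, stood at 898 ± 59.5 and 1100 ± 144 CPM and fell by 0.29 (edgeR adjusted p = 0.0272). P2rx1, an ATP-gated channel of platelets, stood at 24.5 ± 7.84 and 37.2 ± 6.76 CPM and fell by 0.60 (edgeR adjusted p = 0.0478).

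The list of thrombopoietin signalling genes had 2 of 12 genes past the threshold in EC KO, both lower. Cbl, a ubiquitin ligase that limits receptor signalling, stood at 123 ± 12.9 CPM in EC KO and 168 ± 15.8 in Spred1 wt (n = 5 each) and fell by 0.45 (edgeR adjusted p = 0.00069), and it passed in 22 of 22 alternative fits. Tyk2, a Janus kinase, fell by 0.19 (edgeR adjusted p = 0.0327). Of 18 transcription factors 1 fell, Runx1, a factor that megakaryocyte maturation needs, at 179 ± 15.5 against 216 ± 17.5 CPM (log2 difference -0.27, edgeR adjusted p = 0.0447). Gata2 stood at a mean of 366 CPM and Gata1, the factor of committed megakaryocytes and red cells, at 17.6 CPM over all libraries.

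Of 20 granule and secretion genes 1 fell, Slc18a2, the vesicular monoamine transporter that loads serotonin into dense granules and that mast cells also use, at 112 ± 56.1 against 251 ± 76.6 CPM (n = 5 each; log2 difference -1.16, edgeR adjusted p = 0.0319). Of 14 cytoskeleton genes 1 rose, Cdc42, a small GTPase of proplatelet formation, at 474 ± 27.7 against 413 ± 22.9 CPM (0.20, edgeR adjusted p = 0.0223). Of 5 eicosanoid enzymes 1 fell, Tbxas1, thromboxane synthase, at 47.2 ± 9.64 against 62.0 ± 8.16 CPM (-0.39, edgeR adjusted p = 0.044). Widely used genes led these lists in level: Srgn stood at a mean of 959 CPM, Myh9 at 1082 and Tln1 at 1080, while the platelet-restricted Tubb1, Clec1b and Alox12 stood at 0.642, 0.590 and 0.365 CPM. Apart from Cbl, the list genes named as passing did so in 8 (P2rx1) to 16 (Syk) of the 22 alternative fits.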

How the data were processed

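Bulk RNA of sorted LSK cells gave 26 libraries in 5 groups, taken from titles and genotype labels. The authors deposited raw read counts per gene, whole numbers without normalization, with a gene length in kb, another deposited column. The submitters' processing notes name STAR 2.6.0, bcl2fastq 2.18.0.12, edgeR 3.28.1, HTSeq 0.6.0 and the build mm10. Annotation and strand setting are not given in the sources used here, so counts of overlapping or antisense genes are uncertain. Of the genes listed, 5297 are 0 in all libraries.

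The genes described, all lists and the tests were chosen with earlier results of these data known. Levels are TMM-scaled CPM (edgeR 4.0.16, R 4.3.3). After filterByExpr (minimum count 10), 13379 genes entered 1 fit over all groups (21 residual degrees of freedom) with robust quasi-likelihood F-tests, two-sided, Benjamini-Hochberg adjusted over all genes. Intervals are 95% and the common biological coefficient of variation was 0.205. Correlations used log2 CPM (prior count 2) with group means subtracted and 100000 permutations of libraries (smallest possible p 1e-05). Alternatives were DESeq2 1.42.0, RLE and upper-quartile scaling, other filters, only the groups compared, limma voom 3.58.1 with quality weights, a sex covariate, other EC KO controls and each library left out. A mast cell marker covariate and a fit of libraries without Xist were added after the values were seen. The fit was tested on simulated data. Named are all 10 genes, the list genes past the threshold or most abundant, and the 10 genes of nearest pattern. Further values named, such as those of Gata1, Tubb1, Clec1b, Alox12 and the nearest genes of single members, were chosen after they were seen. Python 3.11.15, NumPy 2.4.6, pandas 2.3.3 and matplotlib 3.10.9 were used.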

Additional observations from a re-analysis of the deposited data

Results flagged for a closer look

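Of 48 combinations of gene and group examined for a library far from the others, 7 stood out. A chance rate of about 1 in 20 groups would hold only for normally distributed and independent values. Several of these counts were low and the genes correlated, so 7 of 48 cannot be set against that rate. HSC KO 1 accounted for 5 of the 7, as the highest of its group of 5 in each. There Pf4 stood at 27.7 CPM where the next library had 6.35, Ppbp at 3.67 where the next had 0.962, and Treml1 at 5.07 where the next had 1.67. Vwf stood at 63.8 CPM with 21.1 in the next library, and Gp6, the collagen receptor gene, at 0.408 CPM (7 counts) with 0.0658 in the next. In global KO, library 3 had the highest Ppbp, 2.58 CPM with 1.09 in the next. Library 2 of the same group had the highest Gp1ba, 22.7 CPM with 11.3 in the next.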

How the results depend on the processing

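No paired analysis was possible because the library numbers in the labels run through all groups and no number is shared between groups. Outside EC KO, 0 members and 0 genes of the other lists were called in any alternative of the other 4 comparisons. In EC KO against Spred1 wt 0 members were called, but 1 was with RLE, upper-quartile scaling, the 1 CPM filter or DESeq2 (Gp1ba), 1 in the compared groups only or with the mast cell covariate (Vwf), 2 with the control changed to HSC wt or to the average of the wild types or in libraries without Xist (Gp1ba and Ppbp), and 0 to 1 on leaving out a library. The 9 list genes called there became 3 with the sex covariate, 1 in the compared groups only, 3 in libraries without Xist and 2 to 13 on leaving out a library (2 without EC KO 3, 13 without EC KO 5). The 17 correlated pairs became 12 when group means were not subtracted (10 positive, 2 negative) and 3 to 20 on leaving out a library. The negative pairs changed when group means were not subtracted. They were then Ppbp with Gp1ba (-0.65) and with Itga2b (-0.57), while Pf4 did not pass with Itga2b or Gp1ba. The cause of these changes was not tested.

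Of the members' differences, 32 changed sign in alternatives other than left-out libraries, none of them past the threshold, and 331 kept sign and call. In global KO, the mast cell covariate gave -0.0052 for Gp9, 0.15 for Itga2b, -0.16 for Pf4, -0.42 for Ppbp and -0.27 for Vwf, and voom -0.25 for Vwf. In HSC KO, libraries without Xist gave 0.066 for Gp1ba, -0.81 for Gp1bb, -0.70 for Pf4, -0.90 for Ppbp, -0.44 for Treml1 and -0.77 for Vwf. There, voom gave -0.077 for Gp1bb, 0.17 for Gp9, -0.086 for Pf4, -0.19 for Treml1 and -0.25 for Vwf. The sex covariate gave -0.048 for Gp1bb and 0.0072 for Gp9, and the mast cell covariate -0.075 for Gp1bb, 0.030 for Itga2b, -0.0059 for Treml1 and -0.22 for Vwf. In EC KO, HSC wt as control gave -0.30 for Gp1bb and -0.35 for Gp9, the average of the wild types -0.16 and voom -0.12 for Gp9. The mast cell covariate gave -0.15 for Gp9, 0.28 for Itga2b, 0.083 for Itgb3 and -0.44 for Pf4, and libraries without Xist 0.036 for Treml1.

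Leaving out a library changed the sign of 29 differences. In global KO these ranged from -0.24 to 0.10 for Gp1bb, -0.012 to 0.14 for Gp9, -0.39 to 0.011 for Itga2b, -0.16 to 0.85 for Ppbp, -0.27 to 0.041 for Treml1 and -0.14 to 0.28 for Vwf. In HSC KO they ranged from -0.30 to 0.30 for Gp1bb, -0.26 to 0.12 for Gp9, -0.16 to 1.05 for Pf4, -0.055 to 1.77 for Ppbp, -0.34 to 0.45 for Treml1 and -0.43 to 0.36 for Vwf. In EC KO Gp9 ranged from -0.15 to 0.13, and in HSC wt against Spred1 wt Gp1ba from -0.066 to 0.47 and Itgb3 from -0.027 to 0.22. Depth limits Gp6, Gp1bb, Ppbp and Treml1, whose counts were low.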
